A study of Homo sapiens with 8 samples.

Results

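The 10 transcription factors described here build and keep T cell identity, and their RNA was followed in a leukemia line after NOTCH blockade, a glucocorticoid, or both. They were GATA3, TCF7, LEF1, BCL11B, RUNX1, RUNX3, IKZF1, MYB, TCF12 and ETS1, and a probe set belonged to them if the annotation listed it under that gene alone. That gave 30 probe sets of 8 of the 10 factors, out of 41097 single-gene probe sets of 19775 genes. IKZF1 had 9 of them, TCF12 had 4, GATA3, LEF1, BCL11B, RUNX3 and ETS1 had 3 each, and MYB had 2. TCF7 is not analysed here, and the 13 probe sets listed under RUNX1 together with other genes are described apart. The human line CUTLL1, from a T-cell acute lymphoblastic leukemia (T-ALL), was exposed for 48 h to DMSO as vehicle, to 1 microM PF-03084014, to 1 microM dexamethasone, or to both compounds at 1 microM each, called the combination below. PF-03084014 inhibits gamma-secretase, the protease whose cut releases the active part of NOTCH receptors. Dexamethasone, a synthetic hormone of the glucocorticoid class, acts through the glucocorticoid receptor. Each of the 4 groups had 2 Affymetrix arrays, all groups were the same line, and the comparisons asked which transcripts changed with each compound and with both. Nothing in the labels tells whether the 2 arrays of a group are separate cultures, and the p-values therefore rest on a spread between arrays that may be technical.

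The factors act at successive steps of thymocyte development. NOTCH1 signalling in early progenitors induces the HMG-box factor TCF7 and the zinc-finger factor GATA3, which with BCL11B, the E protein TCF12 (HEB), RUNX1, MYB and ETS1 commit cells to the T lineage and open the T cell receptor loci, while LEF1 works beside TCF7 and RUNX3 later sets the CD8 lineage. IKZF1 (Ikaros) represses many genes that NOTCH activates, and several of these factors are mutated, deleted or overexpressed in T-ALL.

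A promoter of each of the 4 factors with an adjusted p under 0.05 in limma in more than 1 comparison is shown, taking a window with a match to the NOTCH partner RBPJ or to RUNX, so that the letters can be set beside the values. Each run is the 250 bases before a transcription start in RefSeq on GRCh38.p14, read 5′ to 3′ on the strand of the gene, with matches to TGGGAA (the core of the RBPJ site) and ACCACA (a RUNX site), or to their reverse complements TTCCCA and TGTGGT, in capitals. They lie at chr1:24965011-24965260 on the minus strand for RUNX3, chr7:50304466-50304715 on the plus strand for IKZF1, chr10:8050986-8051235 on the plus strand for GATA3, and chr15:56917840-56918089 on the plus strand for TCF12.
RUNX3: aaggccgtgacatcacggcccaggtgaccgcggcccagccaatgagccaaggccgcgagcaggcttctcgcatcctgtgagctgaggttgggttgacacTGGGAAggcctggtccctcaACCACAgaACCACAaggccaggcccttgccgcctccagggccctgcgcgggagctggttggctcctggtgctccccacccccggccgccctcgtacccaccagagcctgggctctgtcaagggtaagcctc
IKZF1: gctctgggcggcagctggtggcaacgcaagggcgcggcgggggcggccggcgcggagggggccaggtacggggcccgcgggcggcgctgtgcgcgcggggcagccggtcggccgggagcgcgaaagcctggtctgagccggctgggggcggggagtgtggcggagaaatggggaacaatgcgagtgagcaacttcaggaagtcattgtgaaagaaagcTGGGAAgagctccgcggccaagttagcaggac
GATA3: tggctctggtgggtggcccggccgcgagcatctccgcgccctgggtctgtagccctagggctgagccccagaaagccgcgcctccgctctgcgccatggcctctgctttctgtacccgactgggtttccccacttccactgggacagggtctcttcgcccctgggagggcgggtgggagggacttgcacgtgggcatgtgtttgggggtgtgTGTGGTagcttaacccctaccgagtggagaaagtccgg
TCF12: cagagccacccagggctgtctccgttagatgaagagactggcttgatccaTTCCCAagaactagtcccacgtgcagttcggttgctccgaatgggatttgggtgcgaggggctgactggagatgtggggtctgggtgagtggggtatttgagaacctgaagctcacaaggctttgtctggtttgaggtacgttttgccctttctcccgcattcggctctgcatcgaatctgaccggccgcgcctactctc
In the RUNX3 promoter the RBPJ core began at position -151 and RUNX matches at -131 and -123, counted from the start site. In IKZF1 the RBPJ core began at -32. In GATA3 the capitals mark a RUNX match on the opposite strand at -38, and an RBPJ match on the opposite strand at +18 lay past the printed bases. In TCF12 the RBPJ core lay on the opposite strand and began at -200. The windows not shown for RUNX3, GATA3 and TCF12 held no RBPJ or RUNX match, and another IKZF1 window held a RUNX match at -144. Over all 35116 windows of 300 bases, which run from 250 bases before a start to 50 after it, 24.03% held the RBPJ letters and 13.07% the RUNX letters. Of the 22 windows listed for 9 of the factors, 6 held the RBPJ letters and 4 the RUNX letters. The glucocorticoid receptor letters AGAACA were in 4 of the 22 windows and in 14.79% of all, GATA letters AGATAA in 1 and 10.33%, TCF/LEF letters CTTTGA in 1 and 12.92%, ETS letters CCGGAA in 4 and 17.25%, and MYB letters CAACTG in 2 and 11.4%, each on both strands. A MYB and an RBPJ match in the LEF1 window shared 2 bases, and the other matches did not overlap. These matches describe the sequence and do not show binding.

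All 10 T lymphoblast markers looked at were at an intensity of 100 or more on every array, among them CD3D (12131 to 14030) and LCK (8114 to 8996). Few markers of other blood cells reached 100 on every array. None of 6 measured myeloid markers did, with SPI1 the lowest (1 to 16.1) and CSF1R the highest (79.1 to 210). Of 5 B-lineage markers CD79A did (297 to 585), and of 5 erythroid and megakaryocyte markers GATA1 did (120 to 243). Of 4 NK markers GNLY (256 to 557) and NCR1 (133 to 362) did. The summed B-lineage level was 497 to 537 in DMSO, 584 to 605 with PF-03084014, 632 to 652 with dexamethasone and 668 to 819 with the combination. The summed NK level was 609 to 650, 738 to 755, 720 to 727 and 742 to 1092. The summed T lymphoblast level was 37890 to 38634, 41196 to 42290, 40719 to 40879 and 42102 to 46438 in the same order, and the part of these sums in the results was not tested. Array medians were 61.8 to 63.9 except for 76.3 on combination replicate 2, where 43.9% of probe sets were over 100 against 40.4% to 41.0% on the others. The SD of the log2 difference between the 2 arrays of a group was 0.559 in the combination and 0.357 to 0.372 in the other groups. Levels are intensities on the linear scale deposited and cannot be compared between probe sets.

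GATA3 rose and RUNX3 fell with PF-03084014, and both did so with the combination, where IKZF1, TCF12, ETS1 and BCL11B also had probe sets that rose. No factor was called with dexamethasone alone. Here "rose", "fell" and "called" mean an adjusted p under 0.05 (limma, Benjamini-Hochberg over all 41097 probe sets), and each ± is the standard error (SE) of a log2 difference between groups of 2 arrays. With PF-03084014 against DMSO, 2 of 30 member probe sets rose and 1 fell, beside 0.394% of all probe sets called, and 14 had an unadjusted p under 0.05. With dexamethasone against DMSO, 0 of 30 were called in limma and 4 had an unadjusted p under 0.05, beside 0.0487% called over all probe sets. With the combination against DMSO, 8 rose and 2 fell, beside 7.95% over all. In a fit of only the probe sets at or above the median level, the combination called 12 members and 5033 of all those kept. Fewer than 41097 probe sets were kept, so the share called over all of those kept was also above 7.95%. The median log2 difference over the 30 was 0.21 with PF-03084014, 0.058 with dexamethasone and 0.21 with the combination, and over all probe sets it was 0, 0 and 0.018. These 3 comparisons share the 2 DMSO arrays. When all arrays were shifted to a common median, the combination calls of GATA3 209604_s_at, IKZF1 227346_at and 205038_at, TCF12 238041_at, ETS1 224833_at and BCL11B 219528_s_at ended, as did the PF-03084014 call of GATA3 209604_s_at, and a fit of only the groups compared called 0 of all 41097 probe sets in each comparison. RNA was taken from whole cultures, so a change in the mix of cells and a change in RNA per cell cannot be told apart.

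**Figure D1:**
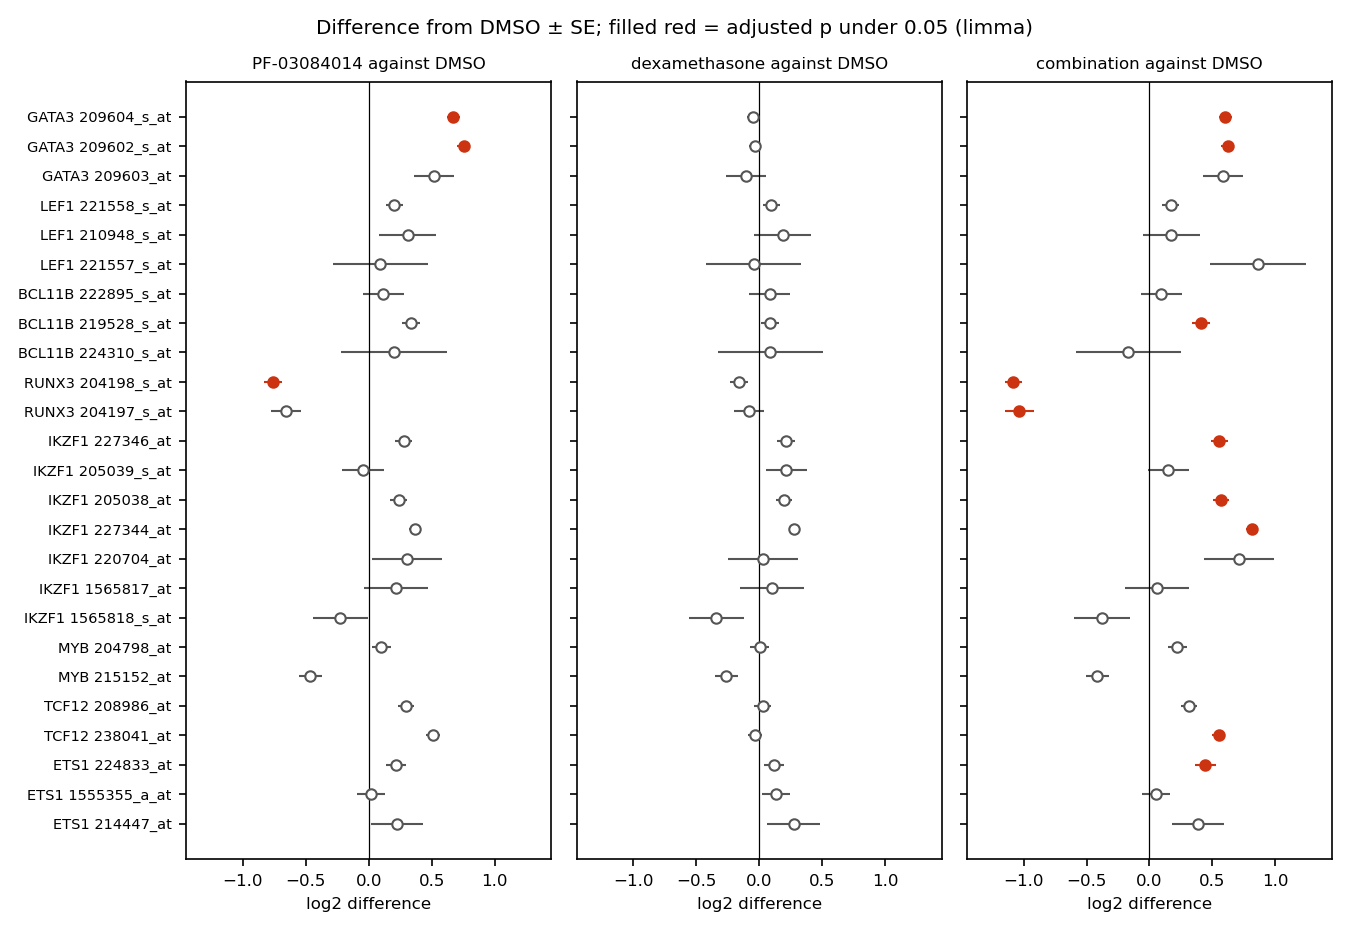
Log2 difference from DMSO for the 25 member probe sets with a mean intensity of 100 or more, 1 panel per treatment, with bars for the SE of the limma fit and filled red points for an adjusted p under 0.05. The GATA3 points lie to the right and the RUNX3 points to the left in the PF-03084014 and combination panels, and no point is filled in the dexamethasone panel.

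GATA3 is the zinc-finger factor that early T progenitors need and that NOTCH can induce in normal thymocytes. Its brightest probe set, 209604_s_at, read 3992 and 4308 in DMSO, 6783 and 6445 with PF-03084014, 4020 and 4007 with dexamethasone, and 6359 and 6240 with the combination. Both groups that received PF-03084014 lay above both groups that did not, with no overlap, and the dexamethasone arrays lay within the DMSO range. The rise was 0.67 ± 0.050 on the log2 scale (1.59-fold, adjusted p = 0.0255) with PF-03084014 and 0.60 ± 0.050 (1.52-fold, adjusted p = 0.00704) with the combination, while dexamethasone gave -0.05 ± 0.050 (adjusted p = 0.943). The probe set 209602_s_at read 1936 and 2055 in DMSO, 3292 and 3435 with PF-03084014, 1942 and 1958 with dexamethasone, and 2976 and 3165 with the combination. It showed the same order of groups, with a rise of 0.75 ± 0.050 (adjusted p = 0.0212) with PF-03084014 and 0.62 ± 0.050 (adjusted p = 0.00675) with the combination. The third, 209603_at, read 1513 and 1531, 2126 and 2229, 1388 and 1448, and 1927 and 2716 in the same order of groups. It was not called, at 0.52 ± 0.16 (adjusted p = 0.325) and 0.59 ± 0.16 (adjusted p = 0.0987), and its combination arrays were the widest apart of the 3. The PF-03084014 calls of both called probe sets ended when DMSO replicate 1, either PF-03084014 array or either dexamethasone array was left out, with an adjusted p of up to 0.112 and 0.0931. Their combination calls held with any 1 array left out, and without combination replicate 2 the rises were 0.62 (adjusted p = 0.0225) and 0.58 (adjusted p = 0.0183).

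RUNX3, the runt-domain factor of the CD8 and cytotoxic lineages, was the factor that fell. Probe set 204198_s_at read 2245 and 2554 in DMSO, 1378 and 1446 with PF-03084014, 2139 and 2149 with dexamethasone, and 1104 and 1162 with the combination. The groups did not overlap, and the combination arrays were below the PF-03084014 arrays. It fell by 0.76 ± 0.071 with PF-03084014 (0.589 of the DMSO level, adjusted p = 0.0388) and by 1.08 ± 0.071 with the combination (0.473 of the DMSO level, adjusted p = 0.00505). Dexamethasone alone gave -0.16 ± 0.071 (adjusted p = 0.713). Probe set 204197_s_at read 1909 and 2204, 1234 and 1372, 1939 and 1943, and 917 and 1097 in the same order. Here the dexamethasone arrays lay within the DMSO range, and the difference was -0.66 ± 0.12 with PF-03084014 (adjusted p = 0.125, not called) and -1.03 ± 0.12 with the combination (adjusted p = 0.0130, fell). The third RUNX3 probe set, 234928_x_at, had a mean intensity under 100 and was not called. The PF-03084014 call held in 1 of 8 fits that each left out an array, the fit without DMSO replicate 1, and the highest adjusted p was 0.149. The combination call of 204198_s_at held in 8 of 8, at -1.12 without combination replicate 2, and that of 204197_s_at ended without DMSO replicate 2 (adjusted p = 0.0622) and was -1.16 without combination replicate 2 (adjusted p = 0.0220).

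**Figure D2:**
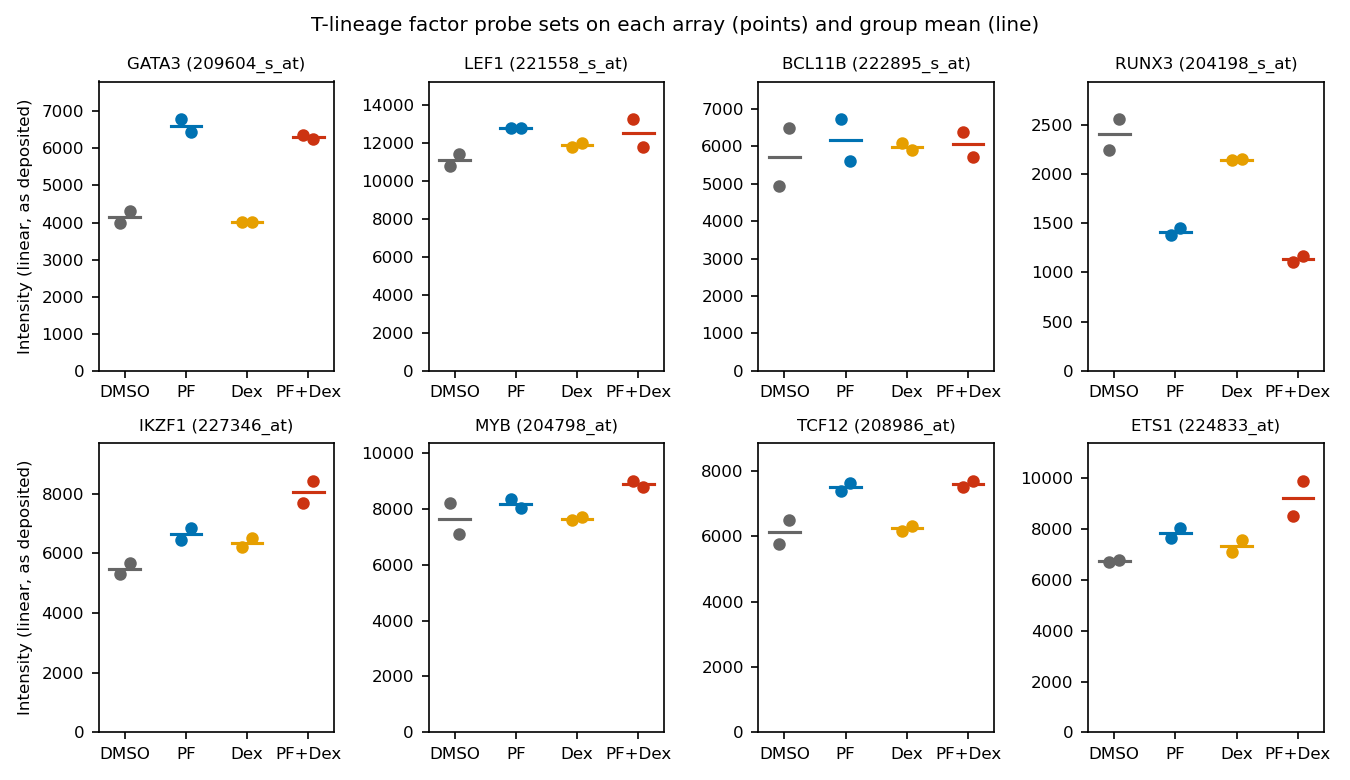
Intensity of the brightest probe set of each of 8 factors on each array (points) and its group mean (line), on a linear axis from 0, for DMSO, PF-03084014 (PF), dexamethasone (Dex) and the combination (PF+Dex). GATA3 is high and RUNX3 low in both groups with PF-03084014, and IKZF1 and ETS1 are highest with the combination.

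IKZF1 encodes Ikaros, the zinc-finger repressor often lost in acute lymphoblastic leukemia. Its brightest probe set, 227346_at, read 5300 and 5675 in DMSO, 6446 and 6852 with PF-03084014, 6205 and 6513 with dexamethasone, and 7691 and 8437 with the combination. All 3 treated groups lay above DMSO and the combination lay above both single compounds, which overlapped each other. With each compound alone it was not called (0.28 ± 0.069, adjusted p = 0.229, with PF-03084014 and 0.21 ± 0.069, adjusted p = 0.537, with dexamethasone), and with the combination it rose by 0.55 ± 0.069 (adjusted p = 0.0159). Probe set 227344_at read 2159 and 2225, 2745 and 2903, 2589 and 2739, and 3826 and 3895. Its groups did not overlap, and it rose by 0.82 ± 0.047 with the combination (1.76-fold, adjusted p = 0.00405) against 0.36 (adjusted p = 0.0733) and 0.28 (adjusted p = 0.237) with PF-03084014 and dexamethasone alone, neither called. Probe set 205038_at read 3357 and 3528, 3961 and 4153, 3941 and 3965, and 5380 and 4820. It rose by 0.57 ± 0.064 with the combination (adjusted p = 0.0131) and was not called with either compound alone, at 0.24 (adjusted p = 0.265) and 0.20 (adjusted p = 0.533).

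The other IKZF1 probe sets were not called. Probe set 205039_s_at read 3951 and 4188 in DMSO, 4391 and 3529 with PF-03084014, 4942 and 4526 with dexamethasone, and 5167 and 3944 with the combination. Its combination arrays lay on either side of both DMSO arrays, and the difference was 0.15 ± 0.17 (adjusted p = 0.625), so not all bright probe sets of IKZF1 were called. Probe set 220704_at read 276 and 283 with the combination and 190 and 153 in DMSO, at 0.71 ± 0.28 (adjusted p = 0.197). The combination differences of 1565817_at (91.4 to 151 over the 8 arrays) and 1565818_s_at (93.2 to 145) were 0.059 ± 0.25 and -0.38 ± 0.22, and the other 2 IKZF1 probe sets were under a mean of 100. Of the 3 combination calls, that of 227344_at held with any 1 array left out, that of 205038_at ended without either DMSO array (adjusted p = 0.0721 and 0.0576), and that of 227346_at ended without either DMSO or either dexamethasone array (adjusted p of up to 0.0809). Without combination replicate 2 the 3 rises were 0.80, 0.64 and 0.49.

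TCF12, the E protein that pairs with itself or with TCF3 at E-box sites in thymocytes, had 2 bright probe sets. The brightest, 208986_at, read 5772 and 6493 in DMSO, 7381 and 7629 with PF-03084014, 6157 and 6327 with dexamethasone, and 7497 and 7703 with the combination. Both groups with PF-03084014 were above both groups without it, yet the differences of 0.29 ± 0.064 (adjusted p = 0.188) and 0.31 ± 0.064 (adjusted p = 0.0522) were not called. Probe set 238041_at read 1593 and 1628, 2204 and 2380, 1525 and 1620, and 2316 and 2396. Again both groups with PF-03084014 were above both without it, and the probe set rose by 0.55 ± 0.054 with the combination (adjusted p = 0.00965), and with PF-03084014 its difference of 0.51 ± 0.054 was not called (adjusted p = 0.0504). The combination call ended without either DMSO array (adjusted p = 0.0576 and 0.0530) and was 0.52 without combination replicate 2 (adjusted p = 0.0337).

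ETS1, the ETS-domain factor of mature and developing lymphocytes, read 6724 and 6791 on 224833_at in DMSO, 7657 and 8051 with PF-03084014, 7099 and 7579 with dexamethasone, and 8515 and 9909 with the combination. No treated array was below a DMSO array, and the combination arrays were the highest. The rise of 0.44 ± 0.083 with the combination was called (adjusted p = 0.0420), and 0.22 (adjusted p = 0.431) and 0.12 (adjusted p = 0.850) with the single compounds were not. The combination call ended after quantile normalization (adjusted p = 0.0801) and with intensities below 32 set to 32 (adjusted p = 0.0543). That call held in 1 of 8 fits with an array left out, the fit without combination replicate 1, and without combination replicate 2 the difference was 0.33 (adjusted p = 0.0562). Probe set 1555355_a_at read 2333 and 2106 in DMSO and 2336 and 2255 with the combination, so the groups overlapped at 0.050 ± 0.11 (adjusted p = 0.839). Probe set 214447_at, at 179 to 267 over the 8 arrays, had a difference of 0.39 ± 0.21 with the combination (adjusted p = 0.328).

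BCL11B, the zinc-finger factor that closes off other fates at T commitment, was called on 1 of 3 probe sets. Probe set 219528_s_at read 4822 and 5426 in DMSO, 6219 and 6686 with PF-03084014, 5414 and 5466 with dexamethasone, and 6631 and 6980 with the combination. Both groups with PF-03084014 were above both groups without it. It rose by 0.41 ± 0.072 with the combination (adjusted p = 0.0359) and was not called with PF-03084014 (0.33 ± 0.072, adjusted p = 0.183). The brightest probe set, 222895_s_at, read 4928 and 6503, 6724 and 5605, 6088 and 5904, and 6392 and 5714, so every treated array but the first with PF-03084014 lay between the DMSO arrays. Its differences from DMSO were 0.12, 0.083 and 0.094, each ± 0.16, with the lowest adjusted p 0.776 for the combination. Probe set 224310_s_at (72.9 to 151) gave -0.17 ± 0.42 with the combination. The call of 219528_s_at held in 1 of 8 fits with an array left out, the fit without combination replicate 1, and without combination replicate 2 it was 0.37 (adjusted p = 0.105).

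LEF1, the HMG-box partner of beta-catenin, was not called in any comparison. Its brightest probe set, 221558_s_at, read 10798 and 11393 in DMSO, 12760 and 12747 with PF-03084014, 11749 and 11971 with dexamethasone, and 13229 and 11747 with the combination. All treated arrays were above DMSO, by 0.20 ± 0.067 (adjusted p = 0.368), 0.097 ± 0.067 (adjusted p = 0.848) and 0.17 ± 0.067 (adjusted p = 0.206). Probe set 210948_s_at overlapped between groups, at 1604 and 2105 in DMSO against 2515 and 1705 with the combination. Probe set 221557_s_at was 85.2 to 126 on 7 arrays and 246 on combination replicate 2, which gave 0.86 ± 0.38 for the combination against DMSO (adjusted p = 0.242).

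MYB, a factor of blood progenitors whose gene can be duplicated in T-ALL, was likewise not called. Probe set 204798_at read 8193 and 7093 in DMSO, 8339 and 8021 with PF-03084014, 7587 and 7705 with dexamethasone, and 8999 and 8785 with the combination. The PF-03084014 and dexamethasone arrays overlapped DMSO, and the combination arrays were the highest, at 0.22 ± 0.074 above DMSO (adjusted p = 0.150). Probe set 215152_at went the other way, from 301 and 296 in DMSO to 211 and 223 with PF-03084014, 245 and 254 with dexamethasone and 240 and 209 with the combination. Its differences were -0.46 ± 0.090 (adjusted p = 0.151), -0.26 ± 0.090 (adjusted p = 0.566) and -0.41 ± 0.090 (adjusted p = 0.0582), and no treated array reached a DMSO array.

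The 5 member probe sets with a mean under 100, of RUNX3, IKZF1 and TCF12, were tested like the others and none was called in any comparison, with differences of -0.23 to 0.32 for the combination against DMSO.

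**Figure D3:**
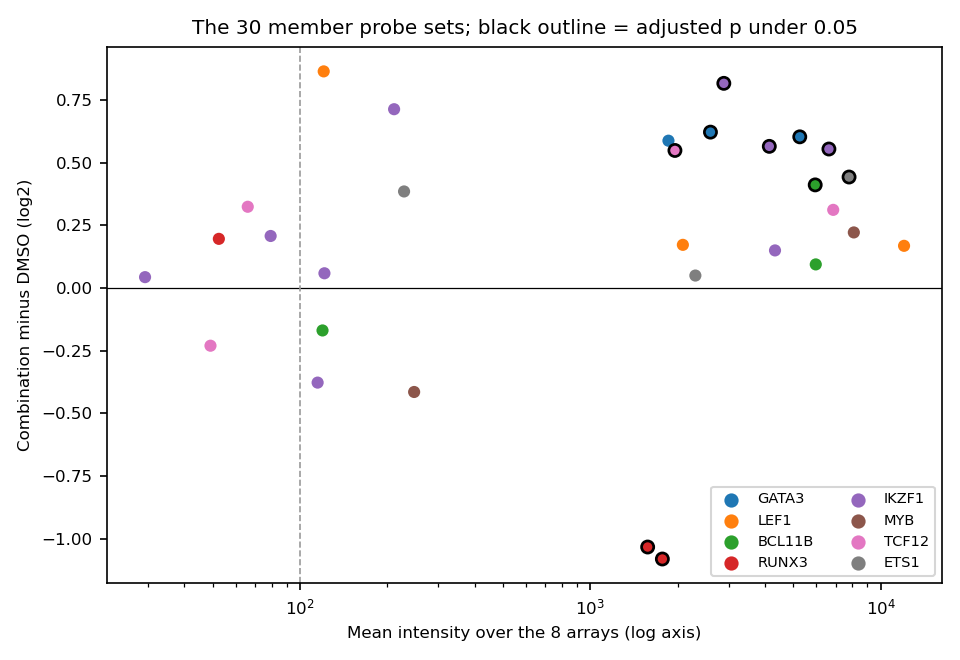
Log2 difference of the combination from DMSO against mean intensity over the 8 arrays (log axis) for the 30 member probe sets, coloured by gene, with black outlines for an adjusted p under 0.05 and a dashed line at an intensity of 100. Outlined points all lie right of the line, and the outlined RUNX3 pair lies near -1. Points of GATA3, RUNX3, IKZF1, TCF12, ETS1 and BCL11B include both outlined and plain ones.

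Set against dexamethasone alone, adding PF-03084014 raised GATA3, TCF12 and IKZF1 and lowered RUNX3. In this comparison 4 of 30 member probe sets rose and 2 fell, beside 3.84% of all probe sets called. GATA3 rose by 0.65 ± 0.050 on both 209604_s_at (adjusted p = 0.0139) and 209602_s_at (adjusted p = 0.0138). TCF12 rose by 0.58 ± 0.054 on 238041_at (adjusted p = 0.0186) and IKZF1 by 0.54 ± 0.047 on 227344_at (adjusted p = 0.0167). RUNX3 fell by 0.92 ± 0.071 on 204198_s_at (adjusted p = 0.0138) and by 0.95 ± 0.12 on 204197_s_at (adjusted p = 0.0270). All 6 calls ended when either dexamethasone array was left out, with an adjusted p of up to 0.148, and that of 204197_s_at also without either DMSO or either PF-03084014 array (adjusted p of up to 0.0665). With the arrays shifted to a common median the calls of GATA3 209604_s_at (adjusted p = 0.0656), TCF12 (adjusted p = 0.0746) and IKZF1 (adjusted p = 0.0989) ended and 2 member probe sets rose and 2 fell. Without combination replicate 2 all 6 held, at 0.66, 0.61, 0.56, 0.52, -0.96 and -1.08 in the order given.

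Set against PF-03084014 alone, adding dexamethasone raised 1 member probe set, IKZF1 227344_at, by 0.45 ± 0.047 (adjusted p = 0.0310), beside 1.4% of all probe sets called. The call held in 1 of 8 fits with an array left out, the fit without combination replicate 1, and it was 0.44 without combination replicate 2 (adjusted p = 0.0651). On the same contrast the other called IKZF1 probe sets gave 0.28 (227346_at, adjusted p = 0.153) and 0.33 (205038_at, adjusted p = 0.0972). RUNX3 204198_s_at gave -0.32 ± 0.071 (adjusted p = 0.126) and GATA3 209604_s_at -0.07 ± 0.050 (adjusted p = 0.544), neither called.

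The interaction term asks whether the combination departs from the sum of both single differences. It was called for 0 of 30 member probe sets in limma and for 0.00243% of all probe sets. The 1 member at an unadjusted p under 0.05 was IKZF1 227344_at, at 0.17 ± 0.066 (adjusted p = 0.595). The sums that follow are for the brightest probe set of each factor, which for IKZF1 is 227346_at. For RUNX3 the single differences added to -0.92 and the combination was -1.08, an interaction of -0.16 ± 0.10 (adjusted p = 0.726). For GATA3 the sum was 0.63 and the combination 0.60, and for IKZF1 0.49 and 0.55. For ETS1 they were 0.33 and 0.44, for TCF12 0.32 and 0.31, for LEF1 0.30 and 0.17, for BCL11B 0.20 and 0.094, and for MYB 0.11 and 0.22. The SE of the interactions of these brightest probe sets was 0.071 to 0.23, which sets how large a departure could have been seen. The sum and the combination difference contain the same DMSO arrays.

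**Figure D4:**
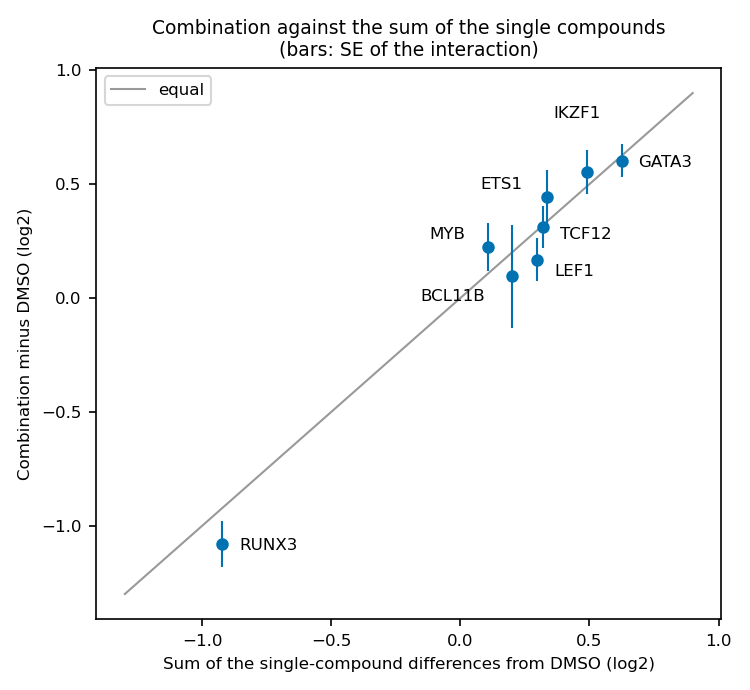
Log2 difference of the combination from DMSO against the sum of the PF-03084014 and dexamethasone differences for the brightest probe set of 8 factors, with the line of equality and bars for the SE of the interaction. RUNX3 lies alone at the lower left and GATA3 and IKZF1 farthest to the upper right; both axes use the same DMSO arrays.

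By the range of the 4 group means of its brightest probe set on the log2 scale, RUNX3 varied most (1.08), followed by GATA3 (0.72), IKZF1 (0.55), ETS1 (0.44), TCF12 (0.31), MYB (0.22), LEF1 (0.20) and BCL11B (0.12). The median size of the difference between the 2 arrays of a group over these 8 probe sets was 0.033 with dexamethasone, 0.071 with PF-03084014, 0.10 with the combination and 0.14 in DMSO. The range of BCL11B 222895_s_at was below the last of these. This order depends on the probe set read. From DMSO, the lowest group, to the combination, the highest, IKZF1 227344_at differed by 0.82 and BCL11B 219528_s_at by 0.41. Over the 8 arrays, which include the treatment groups and share any array-wide shift, log2 levels of ETS1 and IKZF1 had r = 0.974, those of GATA3 and TCF12 r = 0.952, and those of RUNX3 and GATA3 r = -0.912. The 7 pairs with RUNX3 ran from -0.912 to -0.194 and the 21 other pairs from -0.121 to 0.974. Of 10791 other genes whose brightest probe set averaged 100 or more, those most like RUNX3 over the 8 arrays were CNN3 (r = 0.996), RNF144A (0.994), ABCA1 (0.991), CHI3L2 (0.990) and NKD2 (0.990). An r over 0.9 with RUNX3 was found for 2.77% of these genes.

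Relatives and partners of the factors were read by the brightest probe set of each gene. Over the brightest probe sets of all 19775 genes, 0.551% were called with PF-03084014, 0.0809% with dexamethasone and 10% with the combination, each against DMSO, 5.12% and 1.87% for the combination against dexamethasone and against PF-03084014, and 0% in the interaction. Of 20 family members outside the 10, PF-03084014 and dexamethasone each called 0 in limma (5 and 2 at an unadjusted p under 0.05), the smallest p being that of ELF1 with PF-03084014 (0.33 ± 0.057, adjusted p = 0.124) and of MYBL1 with dexamethasone (-0.47, adjusted p = 0.329). The combination raised 2 against DMSO, the ETS factors FLI1 (0.87 ± 0.15, adjusted p = 0.0352) and ELF1 (0.52 ± 0.057, adjusted p = 0.0124), and lowered 2, the MYB relatives MYBL2 (-0.60 ± 0.070, adjusted p = 0.0139) and MYBL1 (-0.57 ± 0.10, adjusted p = 0.0359). MYBL2, which is tied to the cell cycle, was also lower with the combination than with PF-03084014 (-0.59, adjusted p = 0.0373) or dexamethasone (-0.56, adjusted p = 0.0282), the comparison in which ELF1 rose by 0.46 (adjusted p = 0.0283). The list's median in the combination was 0.035, against 0.064 over the brightest probe sets of all genes. The number called with the combination depended on which array was left out, in this list as over all probe sets. Against DMSO, the calls of FLI1 and MYBL1 each held in 1 of 8 fits with an array left out, the fit without combination replicate 1. Without combination replicate 2 FLI1 was at 0.70 and MYBL1 at -0.58. The calls of ELF1 and MYBL2 against DMSO each held in 6 of 8 and ended without either DMSO array. The calls of MYBL2 against either single compound were lost without any 1 of the DMSO, PF-03084014 or dexamethasone arrays (adjusted p of up to 0.184), and that of ELF1 against dexamethasone also without combination replicate 2 (adjusted p = 0.0606).

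Of 19 cofactors measured, PF-03084014 raised 1, LMO4 (0.65 ± 0.069, adjusted p = 0.0496), a LIM-only adaptor, and dexamethasone called 0 in limma, with 0 at an unadjusted p under 0.05. The combination raised 5 against DMSO and lowered 0: TLE1, a corepressor that LEF1 and RUNX factors recruit (1.22 ± 0.11, adjusted p = 0.00840), ZFPM1, a GATA cofactor (1.06 ± 0.18, adjusted p = 0.0344), the acetyltransferase CREBBP (0.80), LMO4 (0.50) and CTNNB1, beta-catenin (0.23). Against dexamethasone 3 rose, led by TLE1 (1.38 ± 0.11, adjusted p = 0.0149), and against PF-03084014 0 were called in limma, with 8 at an unadjusted p under 0.05. The list's median was 0.13 with PF-03084014 and 0.064 with the combination, against 0.018 and 0.064 over all genes. TLE1 was called against DMSO in 8 of 8 fits with an array left out. The count against dexamethasone depended on which array was left out, in this list as over all probe sets. All 3 calls there ended without either dexamethasone array, and LMO4 held in 1 of 8 fits and CREBBP in 3. The LMO4 call with PF-03084014 was lost in all 8. For the combination against DMSO, the calls of ZFPM1 and CTNNB1 each held in 1 of 8 fits, that of LMO4 in 3 and that of CREBBP in 5. Each of these ended without combination replicate 2, when ZFPM1 was at 0.82.

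Among 18 other T-lineage regulators measured, SATB1, a chromatin organiser of thymocytes, and EOMES, a T-box factor of cytotoxic and memory cells, had the largest rises called. SATB1 rose by 0.83 ± 0.052 with PF-03084014 (adjusted p = 0.0203) and by 1.35 ± 0.052 with the combination (adjusted p = 0.00274). EOMES rose by 1.10 ± 0.075 with dexamethasone (adjusted p = 0.0472) and by 2.83 ± 0.075 with the combination (adjusted p = 0.00150), and was 1.73 above dexamethasone and 2.64 above PF-03084014 in the combination. Those were the only calls of the list for the single compounds, and the combination raised 4 against DMSO and lowered 1, ID3, the inhibitor of E proteins such as TCF12 (-0.63 ± 0.12, adjusted p = 0.0421). ID3 was also lower with the combination than with PF-03084014 alone (-0.96 ± 0.12, adjusted p = 0.0399). Against dexamethasone 5 rose and against PF-03084014 2 rose and 1 fell, and the list's median was 0.20 with PF-03084014, -0.0069 with dexamethasone and 0.084 with the combination. EOMES and SATB1 were called for the combination against DMSO in 8 of 8 fits with an array left out. NFATC3 and TOX, which also rose there, were called in 6 and 3 of 8. The EOMES call with dexamethasone was lost in all 8 (adjusted p 0.0598 to 0.146), the SATB1 call with PF-03084014 without DMSO replicate 1, either PF-03084014 or either dexamethasone array, and the ID3 call against DMSO in 6, with combination replicate 1 or 2 left out being the exceptions. The counts of the combination against either single compound depended on the array left out, in this list as over all probe sets. Against dexamethasone, NFATC3 and PRDM1 held in 1 of 8 fits, the fit without combination replicate 1. Against PF-03084014, ID3 and SATB1 held in 2 of 8, those without a combination array. Of 10 measured transcription factors that drive T-ALL when misexpressed, 0 were called in any comparison in limma, with 1 or 2 at an unadjusted p under 0.05 in each. In each combination comparison some were called in at least 1 fit with an array left out, and calls over all probe sets changed as well. The smallest p was that of HHEX with PF-03084014 (-0.43, adjusted p = 0.242) and of BCL11A with the combination against DMSO (-0.35, adjusted p = 0.0842).

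Among genes that the factors are known to control, RAG1, RAG2 and CD2 had the largest rises called with the combination against DMSO. Of 26 measured T cell receptor and thymocyte genes, PF-03084014 called 1, PTCRA, the pre-T cell receptor alpha chain and a NOTCH target, which fell by 0.77 ± 0.036 (adjusted p = 0.0119), and 15 had an unadjusted p under 0.05. Dexamethasone called 1, again PTCRA, which rose by 0.52 ± 0.036 (adjusted p = 0.0496). The combination raised 7 against DMSO: the recombinase genes RAG1 (1.84 ± 0.16, adjusted p = 0.00789) and RAG2 (1.39 ± 0.11, adjusted p = 0.00582), the adhesion receptor CD2 (1.12 ± 0.10, adjusted p = 0.00841), CD1C (0.86), IL7R (0.58), TRAT1 (0.45) and CD3E (0.35). PTCRA fell by 0.38 ± 0.036 (adjusted p = 0.00930), a value between those of both compounds alone. Against dexamethasone 4 rose, led by RAG1 (0.98 ± 0.16, adjusted p = 0.0472), and PTCRA fell by 0.90. Against PF-03084014, IL7R (1.06 ± 0.052, adjusted p = 0.00950) and PTCRA (0.39) rose and CCR7 fell by 0.71 (adjusted p = 0.0357). The list's median was 0.19 with PF-03084014, 0.12 with dexamethasone and 0.096 with the combination, against 0.018, 0.014 and 0.064 over all genes. RAG1, RAG2, CD2, IL7R and PTCRA were called for the combination against DMSO in 8 of 8 fits with an array left out, TRAT1 in 0 of 8 and CD3E in 2 of 8. The counts of the combination against either single compound again changed with the array left out, in this list as over all probe sets. Against dexamethasone, RAG2 and CD1C held in 1 of 8 fits, the fit without combination replicate 1, and CD2 in 2 of 8, those without a combination array. Against PF-03084014, CCR7 held in 1 of 8, without combination replicate 1, and PTCRA in 2 of 8, without a combination array. The call of PTCRA with dexamethasone was lost in all 8 (adjusted p 0.0650 to 0.161), that with PF-03084014 without either dexamethasone array (adjusted p of up to 0.0688), and that of RAG1 against dexamethasone in 7 of 8, also without combination replicate 2 (0.78, adjusted p = 0.0884).

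RUNX1, the runt-domain factor often mutated in early T-ALL, could not be given a level of its own, because all 13 of its probe sets are listed together with 2 long noncoding RNA genes, LOC101928269 and LOC100506403. They were tested in a fit over 42898 probe sets that keeps those of several genes. The brightest, 211620_x_at, read 6419 and 6616 in DMSO, 6575 and 6719 with PF-03084014, 6526 and 6394 with dexamethasone, and 6436 and 5211 with the combination. It stayed uncalled, at 0.029 ± 0.10 with PF-03084014 and -0.17 ± 0.10 with the combination (adjusted p = 0.371). Probe set 209360_s_at read 2529 and 2470, 3245 and 3448, 2458 and 2426, and 3723 and 3573. Its 2 groups with PF-03084014 lay above the 2 without it, as for GATA3, and it was the 1 of the 13 that was called. It rose by 0.42 ± 0.044 with PF-03084014 (adjusted p = 0.0469), beside 0.406% of all probe sets of that fit, by 0.55 with the combination against DMSO (adjusted p = 0.00664), beside 8.05%, and by 0.58 against dexamethasone (adjusted p = 0.0132), beside 3.89%. The PF-03084014 call was lost in each of 8 fits with an array left out (adjusted p 0.0550 to 0.166), that against dexamethasone without either dexamethasone array, and that against DMSO in none. Probe set 208129_x_at gave 0.11 ± 0.14 with PF-03084014 and 0.34 ± 0.14 with the combination (adjusted p = 0.212). With the combination 209359_x_at gave 0.26 ± 0.11 (adjusted p = 0.229) and 211180_x_at gave 0.18 ± 0.11 (adjusted p = 0.397). Probe set 217263_x_at had the largest difference from DMSO with the combination, -1.55 ± 0.69 (adjusted p = 0.249), with 99.5 and 23.1 on the combination arrays against 169 and 117 in DMSO.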

How the data were processed

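RNA from 8 cultures or aliquots of CUTLL1 was hybridised to Affymetrix 3' expression arrays, from 200 ng of total RNA per the labels. The authors deposited 1 intensity per probe set on a linear scale, and the summarisation software and normalization behind it were not given in the sources used here. Intensities below 16 were set to 16 and converted to log2 here. Of 54675 probe sets, 41097 listed under 1 gene were tested, and 1801 listed under several genes and 11777 listed under none were left out. A single limma model (version 3.58.1, R 4.3.3) took all 8 arrays, had 4 residual degrees of freedom, moderated variances with eBayes along the intensity trend and gave 6 contrasts, two-sided, with Benjamini-Hochberg adjustment over all 41097. The fit was also run on simulated data with known differences. Those data had the same spread in every group, unlike the combination group here, and their outcome is not used here. The number of arrays, 2 per group, limits the precision: the median SE over all probe sets was 0.199 log2 units. SEs pool 1 spread over all groups.

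The factors, the gene lists and the tests were chosen with earlier results of these data known. All factors were named, with the brightest probe set of each except TCF7 and any other probe set called or of mean intensity 100 or more. From the gene lists the members with the largest called rise and fall were named, or the one with the smallest p where none was called, and further called members were added after their values were seen. BCL11A is in 2 lists, and all 10 T lymphoblast markers are also in the list of thymocyte genes. Probe sets whose names end in _s_at or _x_at can match several transcripts. Alternatives were quantile normalization, a common median, a floor of 32, leaving out dim probe sets, 1 probe set per gene, only the groups compared, each array left out in turn, and a replicate block. Keeping probe sets of several genes, and the left-out arrays for the gene lists and 209360_s_at, were added after seeing the data. Promoter sequences are from RefSeq, GRCh38.p14.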

Additional observations from a re-analysis of the deposited data

Results flagged for a closer look

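The probe set 209360_s_at was left out of the main comparisons because it is listed under RUNX1 and 2 long noncoding RNA genes, and it carried a signal there. It was 0.42 higher on the log2 scale with PF-03084014 than with DMSO (adjusted p = 0.0469 in limma), 0.55 higher with the combination than with DMSO (adjusted p = 0.00664), and 0.58 higher with the combination than with dexamethasone (adjusted p = 0.0132). Both arrays of each group with PF-03084014 lay above both arrays of each group without it. Which of the 3 listed genes gave the signal was not tested.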

How the results depend on the processing

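All 20 calls of member probe sets kept their sign under every alternative run. Of 40 uncalled values of brightest probe sets, 18 changed sign under at least 1 alternative, none larger than 0.12 in the alternative fit, and 12 of their 632 alternative values were called. Fitting only the groups compared, which uses fewer arrays, called 0 members, and 0 of all probe sets, in each of the 5 comparisons tested: at an unadjusted p under 0.05 limma gave 14 with PF-03084014, 6 with dexamethasone and 13 with the combination, each against DMSO, and 13 against dexamethasone and 4 against PF-03084014 for the combination. With 1 probe set per gene, of 8, the combination called 5 against DMSO, 3 against dexamethasone and 0 against PF-03084014 (3 at an unadjusted p under 0.05), beside 2360, 1430 and 562 over all genes. A common median called 5 for the combination against DMSO, 3 of them higher and 2 lower, 4 against dexamethasone, and 0 against PF-03084014 (3 at an unadjusted p under 0.05). Over all 41097 probe sets it called 2268, 896 and 280 in the same order, against 3268, 1580 and 574 in the main fit. The common median moved the median of all probe sets by -0.12 in the interaction and, for the combination, by -0.098 against DMSO, -0.12 against dexamethasone and -0.10 against PF-03084014. It also changed the share of all calls that rose from 49.9% to 32.1% against DMSO, from 42.7% to 21.3% against dexamethasone and, for dexamethasone against DMSO, from 75.0% to 100%. Without dim probe sets, those below the median mean log2 level, 6 members were called with PF-03084014. For the combination 12 were called against DMSO, 12 against dexamethasone and 2 against PF-03084014. Over the probe sets kept, the counts were 370, 5033, 3348 and 1076 in the same order. The 162, 3268, 1580 and 574 called with dim ones kept are out of more probe sets, so these counts do not share a total. With an array left out the members called were 0 to 3 with PF-03084014 and 4 to 12 with the combination, each against DMSO, and 0 to 10 against dexamethasone and 0 to 4 against PF-03084014. Over all probe sets these fits called 0 to 227, 957 to 9481, 151 to 8759 and 11 to 5755 in the same order. The labels give the arrays of each group the numbers 1 and 2 without saying what they share, and deviations of replicate 1 correlated between groups by -0.0038 to 0.096. With a replicate block, 0 members were called with PF-03084014 (14 at an unadjusted p under 0.05), and 11, 7 and 1 for the combination against DMSO, dexamethasone and PF-03084014, beside 5, 2745, 925 and 124 over all probe sets.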
